A study of Mus musculus with 4 samples.

Results

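The 10 antioxidant response genes Nfe2l2, Nqo1, Gclc, Gclm, Hmox1, Txnrd1, Srxn1, Slc7a11, Gsr and Me1 were taken by name from the 50766 genes in the tables of a single-cell RNA sequencing series on mouse liver. All 10 were measured in every library. Each was followed over the cell classes and the surgery groups.

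The transcription factor NRF2, encoded by Nfe2l2, is held at a low level by KEAP1, which marks it for destruction. When KEAP1 cysteines are modified by oxidants or electrophiles, NRF2 pairs with a small MAF protein on the antioxidant response element and switches on genes for glutathione synthesis, thioredoxin recycling, quinone reduction, haem breakdown and NADPH supply. Several of these genes also answer to other factors, among them ATF4 during amino acid shortage and BACH1, which occupies the same element as a repressor. Biliary epithelial cells (BECs) line the bile ducts and are in direct contact with bile acids, whose build-up in cholestasis is a known source of oxidative stress in liver.

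The 4 libraries, 2 per group and read here as 1 mouse each because every title carries its own number, came from mice of genotype Sox9EGFP, a name that couples the green fluorescent protein EGFP to Sox9, a transcription factor of the biliary epithelium. The sham group was taken 7 days after sham surgery, and the BDL group 7 days after bile duct ligation, an operation that blocks bile outflow. The labels give tissue as liver and cell type as biliary epithelial cells, and give neither strain, sex and age nor the way the cells were isolated. Cells were fixed and carried through split-pool barcoding with random hexamer and oligo(dT) primers, and the deposited values are unique molecular identifiers (UMIs) counted per cell and gene.

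The libraries held 2089 to 4065 cells and 10024577 to 33809650 UMIs. Sham cells had a median depth of 3260 and 2610 UMIs, and BDL cells one of 7058 and 7793, so the BEC-like sums of the BDL libraries rest on more counts. The deposited cell tables name sham replicate 2 as BDL and BDL replicate 2 as sham, against the sample labels. Libraries were grouped by the labels, each group name stands for the label, and differences between the 2 libraries whose names match are given beside the results for the 10 genes, with no test. BDL replicate 2 also stood apart in Xist, a transcript of the inactive X chromosome, with 1951 CPM (UMIs of the gene relative to all UMIs of the same sum, on the CPM scale) in its biliary cells against 8.13 to 10.3 CPM in the other libraries. No barcode was shared between libraries.

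After filtering, 12179 cells formed 18 clusters and 5 classes named by their markers. BEC-like cells, which led for 6 to 11 of 12 biliary markers in every cluster, numbered 2625, 2593, 1972 and 3837 in sham replicate 1, sham replicate 2, BDL replicate 1 and BDL replicate 2. That order of libraries is kept in every series of 4 values below. Mesenchymal-like cells numbered 187, 416, 71 and 132, and endothelial-like, hepatocyte-like and macrophage-like cells 215, 81 and 50 in all. In BEC-like cells, summed per library, 4328 of 15991 genes passed the test between the groups (edgeR's quasi-likelihood test, Benjamini-Hochberg adjusted p under 0.05), which is 27.1% of those tested (14.2% rose after ligation and 12.8% fell). The groups did not overlap for 68.7% of all genes, so separation of the libraries alone is common here.

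In BEC-like cells the antioxidant response genes did not move as a block. Of 10 tested, Slc7a11, Hmox1 and Me1 rose after ligation, Srxn1 fell and 6 did not pass the threshold, among them Nfe2l2 itself and the genes for both subunits of glutamate-cysteine ligase. DESeq2 called the same 4 genes, and 22.3% of all genes. The median log2 fold change of the 10 was 0.07, against -0.02 over all genes tested. The libraries of the groups did not overlap for 7 of the 10. Each fit with 1 library left out has 1 library in a group. The count of called genes changed between these fits, as it did over all genes. Their log2 fold changes ran from 3.19 to 3.81 for Slc7a11, 0.63 to 1.09 for Hmox1, 0.56 to 0.63 for Me1 and -1.31 to -0.83 for Srxn1.

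**Figure D1:**
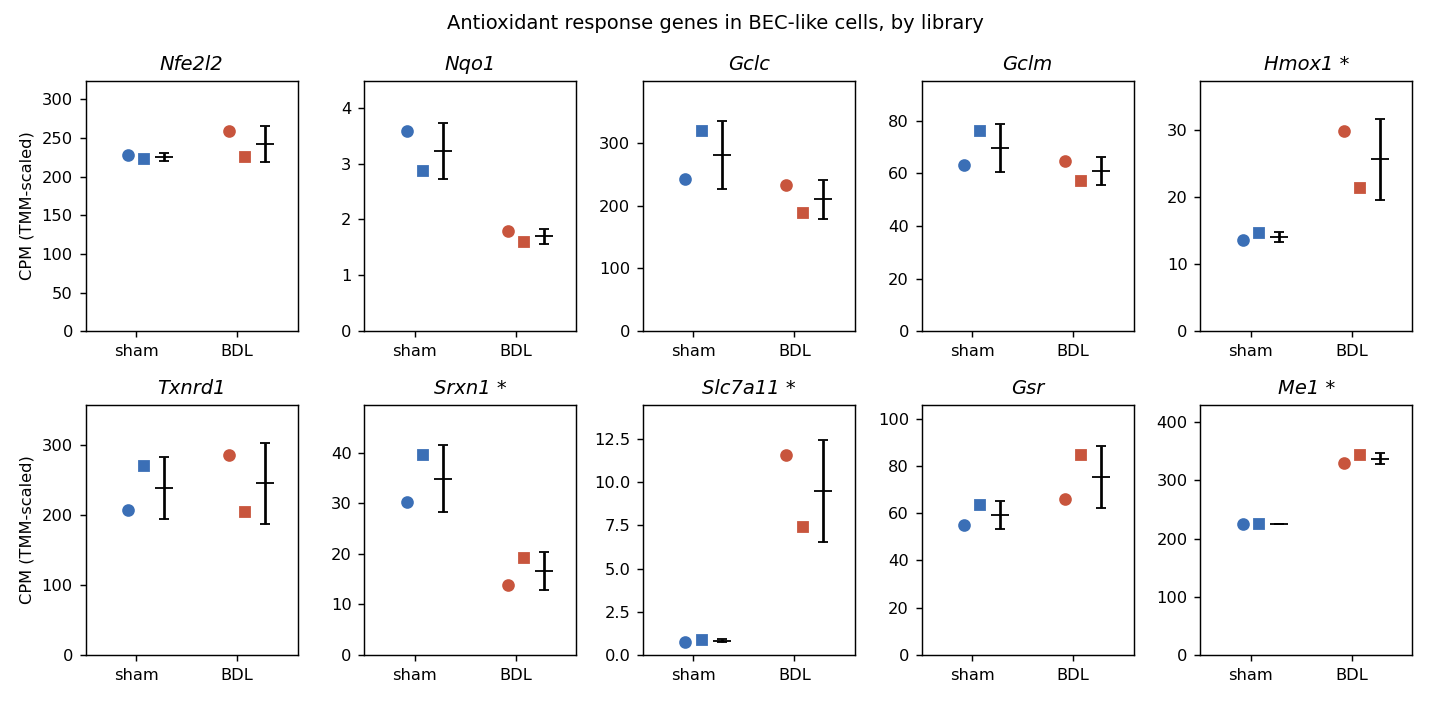
Level of each of the 10 genes in BEC-like cells, in TMM-scaled CPM, with 1 point per library (circle for replicate 1, square for replicate 2) and the group mean ± SD (n = 2) as a black bar beside it; an asterisk marks an edgeR adjusted p under 0.05. Slc7a11, Hmox1 and Me1 lie higher in both BDL libraries and Srxn1 lower, while Nfe2l2, Gclm and Txnrd1 overlap between the groups.

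Slc7a11 encodes xCT, the light chain of the cystine/glutamate antiporter that brings in cystine, the source of cysteine for glutathione. It had the largest change of the 10 genes. Its TMM-scaled level in BEC-like cells was 0.774, 0.875, 11.6 and 7.42 CPM. Those values rest on 8, 7, 168 and 237 UMIs. The sham libraries rested on few UMIs and were close together, and both BDL libraries were far above them. Slc7a11 rose 11.4-fold (log2 fold change 3.51, SE 0.37, edgeR adjusted p = 0.0014). The call held without each library in turn, with log2 fold changes of 3.19 to 3.81, and the 2 libraries with matching names differed by 3.90 on the log2 scale.

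A UMI of Slc7a11 was present in 0.305%, 0.154%, 5.17% and 3.75% of BEC-like cells, unthinned, at unequal depth, so the transcript was seen in few cells in any library. No UMI of it was found in 81 hepatocyte-like cells, where a limit of 3 UMIs corresponds to 6.37 CPM, nor in 215 endothelial-like cells, where it corresponds to 7.56 CPM. Macrophage-like cells carried more, at 1996, 396, 89.0 and 613 CPM, but unevenly, from 51, 10, 4 and 38 UMIs in 6, 11, 12 and 21 cells. The 10 macrophage markers summed to 44.8, 42.9, 42.5 and 44.9 CPM in BEC-like cells. Csf1r was higher in the BDL libraries (29.7, 29.2, 34.2 and 37.0 CPM) and Cd68 lower (12.1, 9.77, 5.47 and 5.22 CPM), while Cd163, C1qa and C1qb stood at 0 to 0.36 CPM. The part of macrophage RNA in the rise was not tested. BEC-like cells without a UMI of the hepatocyte transcripts Alb, Apoa1, Ahsg or Ttr numbered 405, 505, 1010 and 2153. In them the change in Slc7a11 was 1.73 on the log2 scale and missed the threshold (edgeR adjusted p = 0.0704). Over all genes, 1224 passed in these cells, against 4328 in all BEC-like cells.

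The Slc7a11 promoter is shown because the amino acid response element described for this gene can be read in it. The 250 bases before the start site, chr3:50443614-50443863 on the minus strand of RefSeq's GRCm38.p6 table, are printed 5′ to 3′ with matches to TGATGNAA, searched on both strands, in capitals.
Slc7a11: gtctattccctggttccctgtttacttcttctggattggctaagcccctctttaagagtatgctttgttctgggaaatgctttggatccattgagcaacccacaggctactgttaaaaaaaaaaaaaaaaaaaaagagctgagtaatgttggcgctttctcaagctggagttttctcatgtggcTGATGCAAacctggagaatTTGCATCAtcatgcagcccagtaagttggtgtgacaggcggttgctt
The match on the printed strand spans bases -66 to -59, and the one on the other strand, printed as its reverse complement, -47 to -40. Both read TGATGCAA in their own direction. TGATGNAA occurs in 3.45% and TGATGCAA in 0.791% of 32851 promoter windows of 250 bases. A match describes the letters and was not tested as a site. The motifs were chosen with earlier results of these data known.

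Genes of the amino acid stress programme under ATF4 were mostly higher in the same cells. Of 10 tested, 6 rose and 2 fell, with a median log2 fold change of 1.22, where 14.2% of all genes rose and 12.8% fell. Asns, asparagine synthetase, rose from 15.9 and 19.4 to 68.0 and 56.4 CPM (edgeR log2 fold change 1.82, SE 0.16, adjusted p = 0.000842). Psat1 of serine synthesis rose by 1.54, and Shmt2 and Mthfd2 of mitochondrial one-carbon metabolism by 2.01 and 1.70 on the log2 scale. All 4 were called without each library in turn. The list had 5 rises and 1 fall without sham replicate 1, and 3 rises and 1 fall in the cells without a hepatocyte UMI. Slc3a2, the heavy chain that pairs with xCT and with other light chains, rose from 73.6 and 75.0 to 146 and 131 CPM (edgeR log2 fold change 0.90, SE 0.11, adjusted p = 0.00274). The 2 that fell were Atf4 itself (-0.52, edgeR adjusted p = 0.0352) and Ddit3, a stress factor downstream of it (-0.82, edgeR adjusted p = 0.0189).

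Gclc and Gclm encode the catalytic and the modifier subunit of glutamate-cysteine ligase, the first and limiting step of glutathione synthesis. Gclc stood at 243, 319, 232 and 188 CPM in BEC-like cells. The BDL libraries lay below both sham libraries, though by little for BDL replicate 1. The difference was -0.42 on the log2 scale (SE 0.17, edgeR adjusted p = 0.112), and it passed the threshold without BDL replicate 1 (-0.55, edgeR adjusted p = 0.00588). In the 2 libraries with matching names it was -0.07. Gclm stood at 63.1, 76.1, 64.7 and 57.1 CPM, so the groups overlapped, and its log2 fold change was -0.19 (SE 0.14, edgeR adjusted p = 0.336). The sign turned in the 2 libraries with matching names (0.036). Without a call in either gene, their direction in BEC-like cells was not resolved with 2 libraries a group.

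Gsr encodes glutathione reductase, which returns oxidised glutathione to its reduced form with NADPH. Its level was 55.1, 63.4, 66.2 and 84.7 CPM, with sham replicate 2 and BDL replicate 1 nearly level. The log2 fold change of 0.35 (SE 0.16, edgeR adjusted p = 0.137) missed the threshold, and passed it without BDL replicate 1 (0.54, edgeR adjusted p = 0.00308). It was 0.26 in the 2 libraries with matching names.

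Of 23 tested genes that use and turn over glutathione, 4 rose and 6 fell, with a median of -0.16, where 14.2% of all genes rose and 12.8% fell. Gstm1, a glutathione transferase, fell from 94.8 and 88.5 to 29.0 and 23.6 CPM (edgeR log2 fold change -1.81, SE 0.14, adjusted p = 0.000515), and Gsta3 of the alpha class fell by 0.74. Chac1, which degrades glutathione inside the cell and is itself under ATF4, rose from 9.68 and 10.6 to 21.7 and 24.8 CPM (edgeR log2 fold change 1.20, SE 0.17, adjusted p = 0.00373). Gstm1 and Chac1 were called without each library in turn, and Gsta3 lost its call without sham replicate 2 (edgeR adjusted p = 0.0655). The count of called genes was 5 without sham replicate 2, and 3, all lower, in the cells without a hepatocyte UMI. Reads of near-identical transferase genes could be shared between family members, and how the counting treated them is not given in the sources used here.

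Srxn1 encodes sulfiredoxin, which repairs over-oxidised peroxiredoxins. It stood at 30.2, 39.6, 13.9 and 19.2 CPM in BEC-like cells. Both BDL libraries were below both sham libraries. Srxn1 fell 2.08-fold (log2 fold change -1.06, SE 0.21, edgeR adjusted p = 0.0129), and the 2 libraries with matching names differed by -1.12. The call was lost without sham replicate 2 (-0.83, edgeR adjusted p = 0.098) and held in the other 3 fits with 1 library left out. It was the only one of the 4 called genes that kept its call in cells without a hepatocyte UMI (-1.57, edgeR adjusted p = 0.0123). Over all genes, that fit called 1224, against 4328 in all BEC-like cells.

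The 250 bases before the Srxn1 start site, chr2:152105274-152105523 on the plus strand of the GRCm38.p6 table, are shown because TGANTCA, the letters read by AP-1 and by small MAF dimers, stands in them in 2 copies (capitals).
Srxn1: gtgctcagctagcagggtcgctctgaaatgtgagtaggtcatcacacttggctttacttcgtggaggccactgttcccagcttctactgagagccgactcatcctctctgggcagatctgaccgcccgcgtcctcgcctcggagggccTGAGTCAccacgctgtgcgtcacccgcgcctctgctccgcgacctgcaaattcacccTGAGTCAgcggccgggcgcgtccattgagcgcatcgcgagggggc
The copies, both TGAGTCA, span bases -102 to -96 and -45 to -39, and the letters read the same motif on either strand. TGANTCA occurs in 6.75% of the promoter windows. The antioxidant response element core, TGACNNNGC, was searched on both strands in the 7 genes with a promoter entry (Nfe2l2, Nqo1, Gclm, Txnrd1, Srxn1, Slc7a11 and Me1) and is in 10.2% of all windows. It matched in Nfe2l2, Gclm and 1 window of Txnrd1. In Srxn1 the copy at -45 to -39 is followed by gc. It differs from the core searched only by a G in place of the C after TGA. No looser form of the core was searched, so the lack of a match does not show that the element is absent. Gclc, Hmox1 and Gsr had no entry.

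Txnrd1 encodes cytosolic thioredoxin reductase, the selenoenzyme that keeps thioredoxin reduced. Its levels of 207, 270, 286 and 204 CPM overlapped completely between the groups. The log2 fold change was 0.04 (SE 0.20, edgeR adjusted p = 0.899), and its sign turned with the library left out, from -0.20 without BDL replicate 1 to 0.27 without BDL replicate 2. The 2 libraries with matching names differed by 0.47. Other thioredoxin and peroxiredoxin genes showed 0 rises and 4 falls among 13 tested (4 falls of 13 against 12.8% falls over all genes). Txnip, the thioredoxin-binding protein, fell from 105 and 98.0 to 34.8 and 23.1 CPM (edgeR log2 fold change -1.82, SE 0.20, adjusted p = 0.00157). Sesn1 fell by 0.998 on the log2 scale, Txnrd3 by 1.21 and Prdx4 by 0.59. Txnrd3 lost its call without sham replicate 2, and Prdx4 without either sham library, leaving 2 falls without sham replicate 2.

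Nqo1 encodes the quinone reductase often used as the marker gene of NRF2 activity. In these libraries it was barely detected, at 3.58, 2.88, 1.79 and 1.6 CPM in BEC-like cells, from 37, 23, 26 and 51 UMIs. The BDL libraries lay below both sham libraries, with a log2 fold change of -0.94 (SE 0.34, edgeR adjusted p = 0.0857). That difference missed the threshold in every fit with 1 library left out (edgeR adjusted p of 0.0749 to 0.375), and was -0.998 in the 2 libraries with matching names. A UMI of Nqo1 was present in 0.887% to 1.37% of BEC-like cells per library.

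Hmox1 encodes haem oxygenase 1, which splits haem into biliverdin, iron and carbon monoxide. It stood at 13.6, 14.6, 29.9 and 21.4 CPM in BEC-like cells. The sham libraries were nearly equal, and both BDL libraries were above them. Hmox1 rose 1.81-fold (log2 fold change 0.86, SE 0.20, edgeR adjusted p = 0.0227), and by 1.14 on the log2 scale in the 2 libraries with matching names. The call was lost without sham replicate 1 (0.81, edgeR adjusted p = 0.131) and without sham replicate 2 (0.93, edgeR adjusted p = 0.0854). It was also lost in cells without a hepatocyte UMI (0.71, edgeR adjusted p = 0.182).

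Of 10 tested genes of haem and iron handling besides Hmox1, 0 rose and 4 fell, where 14.2% of all genes rose and 12.8% fell. Blvrb, a biliverdin reductase, fell from 7.36 and 8.25 to 2.07 and 3.23 CPM (edgeR log2 fold change -1.52, SE 0.29, adjusted p = 0.0119). Alas1, the first enzyme of haem synthesis in liver, fell by 0.63, Slc40a1 (ferroportin, the iron exporter) by 0.43 and Ftl1 (ferritin light chain) by 0.60 on the log2 scale. Each of these falls lost its call without sham replicate 2, and Ftl1 alone kept it without sham replicate 1.

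Me1 encodes cytosolic malic enzyme, which makes NADPH for antioxidant enzymes and for fatty acid synthesis. It was at 226, 226, 331 and 344 CPM. The replicates of each group were close, and the groups were well apart. Me1 rose 1.49-fold (log2 fold change 0.58, SE 0.11, edgeR adjusted p = 0.00989), and by 0.55 in the 2 libraries with matching names. Its size hardly moved with 1 library left out (0.56 to 0.63), while the call was lost without sham replicate 1 (edgeR adjusted p = 0.0701) and without sham replicate 2 (edgeR adjusted p = 0.0658). In cells without a hepatocyte UMI it was 0.36 (edgeR adjusted p = 0.177).

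Of 10 other NADPH-supply genes, 2 rose and 2 fell, near the shares of 14.2% and 12.8% over all genes: Pgd of the pentose phosphate pathway rose by 0.59 and Idh1 by 0.57 on the log2 scale, and Aldh1l1 fell by 1.59 and Mthfd1 by 0.61. Only Aldh1l1 kept its call without either sham library. Of 8 lipogenesis genes tested, 0 rose and 2 fell, against the same shares. Acly fell by 0.60 and Elovl6 by 0.68 on the log2 scale. Acly lost its call without either sham library and Elovl6 without sham replicate 2.

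Nfe2l2 transcript stood at 228, 222, 259 and 225 CPM, and the groups overlapped. Its log2 fold change was 0.10 (SE 0.12, edgeR adjusted p = 0.545), 0.027 to 0.21 with 1 library left out, and 0.18 in the 2 libraries with matching names. NRF2 is controlled largely through its protein, which was not measured. Of the 14 genes that control it, 1 rose and 4 fell, with a median of -0.02, where 14.2% of all genes rose and 12.8% fell. Bach1, the repressor at antioxidant response elements, rose from 76.0 and 91.4 to 175 and 152 CPM (edgeR log2 fold change 0.97, SE 0.14, adjusted p = 0.00428). Its relative Bach2 fell by 1.22, and the small MAF genes Maff and Mafk fell by 0.998 and 0.50 on the log2 scale. Bach1, Bach2 and Maff were called without each library in turn, and Mafk was called only without BDL replicate 1.

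Further genes known as NRF2 targets in other systems were also called in both directions. Of 15 tested, 3 rose and 8 fell, with a median of -0.55, where 14.2% of all genes rose and 12.8% fell. Osgin1, an oxidative stress-induced growth inhibitor, fell from 232 and 269 to 77.1 and 95.9 CPM (edgeR log2 fold change -1.53, SE 0.15, adjusted p = 0.00106). Ugdh, which makes UDP-glucuronic acid, fell by 0.89 and Gabarapl1 of autophagy by 0.77, while the export pump gene Abcc4 rose by 1.03 on the log2 scale. Ugdh lost its call without sham replicate 2 (edgeR adjusted p = 0.0634). The falls numbered 3 without sham replicate 1, 2 without sham replicate 2 and 3 in cells without a hepatocyte UMI.

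Of 4 genes that remove superoxide and peroxide, 3 fell, where 12.8% of all genes did: Sod3 by 1.22, Cat (catalase) by 0.87 and Sod1 by 0.62 on the log2 scale. Sod2 did not pass (-0.28, edgeR adjusted p = 0.144), and without sham replicate 2 only Sod3 was called. Of 7 tested genes for sources of these oxidants, 3 rose and 1 fell, where 14.2% of all genes rose and 12.8% fell. Cyba, the p22phox subunit of NADPH oxidases, rose from 43.2 and 53.9 to 135 and 127 CPM (edgeR log2 fold change 1.43, SE 0.14, adjusted p = 0.0011), and Noxo1, an oxidase organiser, rose by 1.69. Duox2 was at 2.90, 3.38, 5.45 and 17.3 CPM, so its rise (1.90, edgeR adjusted p = 0.0434) rests mainly on BDL replicate 2, and it lost its call without that library (edgeR adjusted p = 0.106) or without either sham library. Cybb, the phagocyte subunit, fell by 1.65 from at most 4.75 CPM and lost its call without either sham library.

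**Figure D2:**
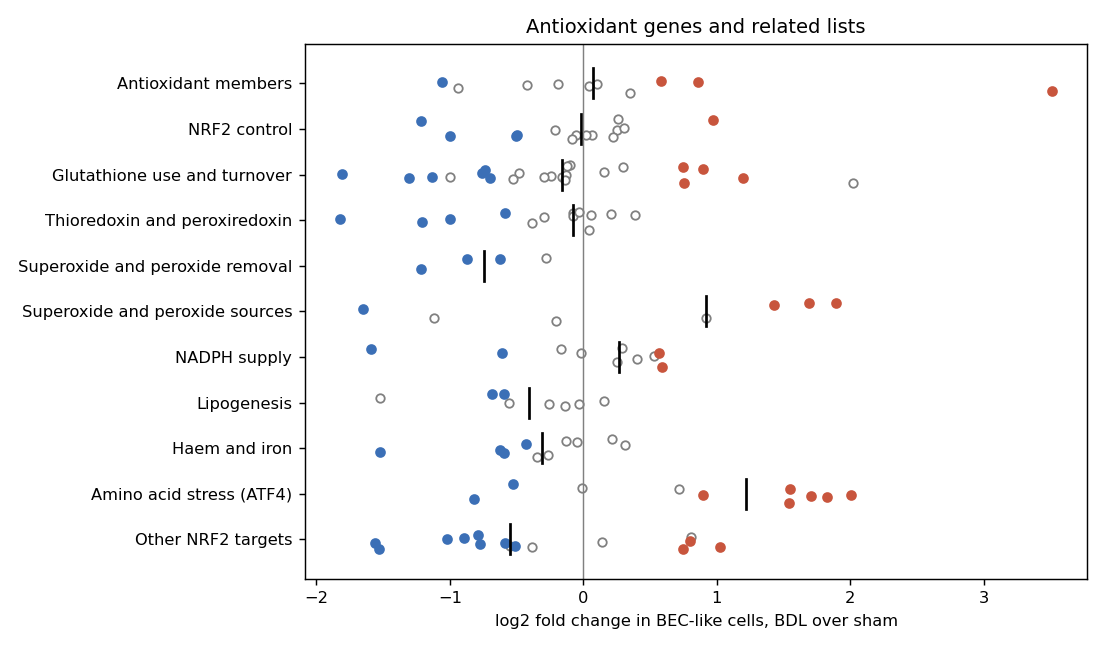
Log2 fold change (BDL over sham) in BEC-like cells for every tested gene of the 10 antioxidant response genes and 10 related lists, 1 point per gene; filled red points rose and filled blue points fell at an edgeR adjusted p under 0.05, open points did not pass, and the black bar is the list's median. The antioxidant genes are spread to both sides with Slc7a11 at 3.51, and the amino acid stress list lies mostly to the right, with a median of 1.22.

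Markers of other cell types moved between the groups within the BEC-like sums. The 12 hepatocyte markers summed to 1716 and 1743 CPM in the sham libraries and 417 and 409 CPM in the BDL libraries, led by Alb at 854, 993, 71.0 and 46.9 CPM. Fgb went the other way (0.92, 0.83, 3.69 and 4.57 CPM), and Apob overlapped between the groups (82.9, 71.9, 81.6 and 58.5 CPM). Serpina1a (0.12 to 1.07 CPM) and Cyp2e1 (0 to 0.12 CPM) were at or near 0. The 12 mesenchymal markers summed to 352, 249, 1227 and 1493 CPM, led by Rgs5 at 247, 144, 1209 and 1461 CPM, while Reln went the other way (83.1, 76.2, 5.81 and 8.73 CPM), as did Dcn (6.76, 10.5, 1.5 and 2.70 CPM). Col1a1 was at 2.53 to 5.44 CPM, against 1531 to 6918 CPM in mesenchymal-like cells. The 10 endothelial markers summed to 43.6, 47.2, 22.2 and 12.3 CPM, with Pecam1, at 36.1, 33.9, 15.03 and 2.83 CPM, accounting for the lower sums, while Vwf was higher in the BDL libraries (0.10, 0.48, 0.75 and 1.06 CPM). The 5 mesothelial markers summed to 333, 276, 93.7 and 101 CPM. Their part in the changes of the antioxidant genes was not tested. The cells without a hepatocyte UMI do not test it, since Alb itself differed between the groups and these cells made up a larger share of the BDL than of the sham cells.

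Mesenchymal-like cells were the other class with enough cells in every library to test, from sums of 709586, 1273311, 513495 and 1106400 UMIs. Of the 8 antioxidant genes tested there, only Hmox1 passed the threshold, where 6.34% of 8696 genes did (2.44% higher and 3.9% lower). The groups did not overlap for 4 of the 8, against 52.3% of all genes. Slc7a11, with 8 UMIs in all, and Nqo1, with 18, were removed by the filter on low counts. Hmox1 stood at 52.8, 17.1, 240 and 230 CPM, from 37, 20, 118 and 257 UMIs. Both BDL libraries were far above both sham libraries. Hmox1 rose 7.11-fold (log2 fold change 2.83, SE 0.42, edgeR adjusted p = 0.0082). It was called without each library in turn, at 3.79 without sham replicate 1 and 2.14 without sham replicate 2, since the sham libraries differed. In the 2 libraries with matching names the difference was 2.19.

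Markers of other cell types also moved in the mesenchymal-like sums. The 10 endothelial markers summed to 372, 318, 678 and 760 CPM, led by Flt1 at 269, 192, 512 and 657 CPM. Ptprb was also higher in the BDL libraries, at 2.82, 9.42, 89.6 and 66.0 CPM. Pecam1 went the other way (84.6, 102, 68.2 and 29.8 CPM), as did Clec4g and Emcn from at most 1.57 CPM. The endothelial markers Cdh5 and Kdr stood at 0 to 5.64 CPM. The 5 mesothelial markers summed to 100, 195, 19.5 and 47.0 CPM, and the 10 macrophage markers to 12.7, 29.8, 15.6 and 8.13 CPM with Adgre1 at 0. The 5 plasma-cell markers summed to 97.2, 73.0, 152 and 213 CPM. Their part in the rise of Hmox1 was not tested.

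The class joined 2 clusters whose balance differed between libraries. The cluster with Reln among its markers, a gene of hepatic stellate cells, held 56.1%, 75.7%, 38.0% and 16.7% of its cells, and the cluster with Acta2 among its markers held the rest. Hmox1 was higher in the BDL libraries within both. It was at 29.9, 11.9, 217 and 139 CPM (not TMM-scaled) in the former and 72.0, 23.0, 235 and 246 CPM in the latter. In the former the BDL values rest on 32 and 20 UMIs in 27 and 22 cells. The share of all genes that separate within a cluster was not counted.

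For the other genes tested in mesenchymal-like cells no change passed. Gclc was at 124, 172, 275 and 244 CPM (edgeR log2 fold change 0.80, SE 0.25, adjusted p = 0.0941) and Txnrd1 at 294, 230, 505 and 408 CPM (0.80, SE 0.24, edgeR adjusted p = 0.0874). In both genes the BDL libraries lay above the sham libraries, and Txnrd1 passed without BDL replicate 2 (0.95, edgeR adjusted p = 0.0327). Nfe2l2 (0.39), Gclm (0.39), Gsr (0.14) and Me1 (0.16) had adjusted p-values of 0.396 to 0.879. Srxn1 was at 54.2, 24.8, 6.11 and 38.5 CPM, with the BDL libraries on opposite sides of sham replicate 2. Its log2 fold change was -0.57 (SE 0.61, edgeR adjusted p = 0.653), and -2.61 without BDL replicate 2 (edgeR adjusted p = 0.00985). In the 2 libraries with matching names Srxn1 differed by -3.15, and Gclc by 1.147, Txnrd1 by 0.78, Nfe2l2 by 0.37 and Gsr by 0.43, while Gclm (-0.35) and Me1 (-0.054) turned their sign.

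From the 10 related lists, 5 of 85 genes tested passed in mesenchymal-like cells, a share of 5.88% against 6.34% of all genes. Slc3a2 rose by 1.29 on the log2 scale, and Gstm1 fell by 1.20, Txnip by 1.96 and Osgin1 by 1.11. Nox4, an NADPH oxidase of fibroblasts, fell by 2.58. Nox4 and Osgin1 lost their calls without any 1 library, Slc3a2 kept its call in 1, Gstm1 in 2 and Txnip in 3 of the 4 fits. With DESeq2, Nox4 had no adjusted p, and Slc3a2 (adjusted p = 0.083), Gstm1 (adjusted p = 0.103) and Osgin1 (adjusted p = 0.148) did not pass.

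The effect of ligation differed between the classes for 2 of the 10 genes by edgeR's interaction test with the library as a block, where 5.39% of 15309 genes did (3.02% higher and 2.37% lower in BEC-like cells). For Hmox1 the rise in BEC-like cells was smaller by 2.08 on the log2 scale (difference -2.08, SE 0.40, edgeR adjusted p = 0.0029), and the call held without each library in turn (-3.06 to -1.35). For Gclc the effect in BEC-like cells was the lower (difference -1.26, SE 0.27, edgeR adjusted p = 0.00635), although neither change passed within its own class, and the call was lost without BDL replicate 2 (edgeR adjusted p = 0.0506). The differences for Txnrd1 (-0.80, edgeR adjusted p = 0.131) and the remaining 7 genes did not pass, and Txnrd1 passed without sham replicate 1.

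**Figure D3:**
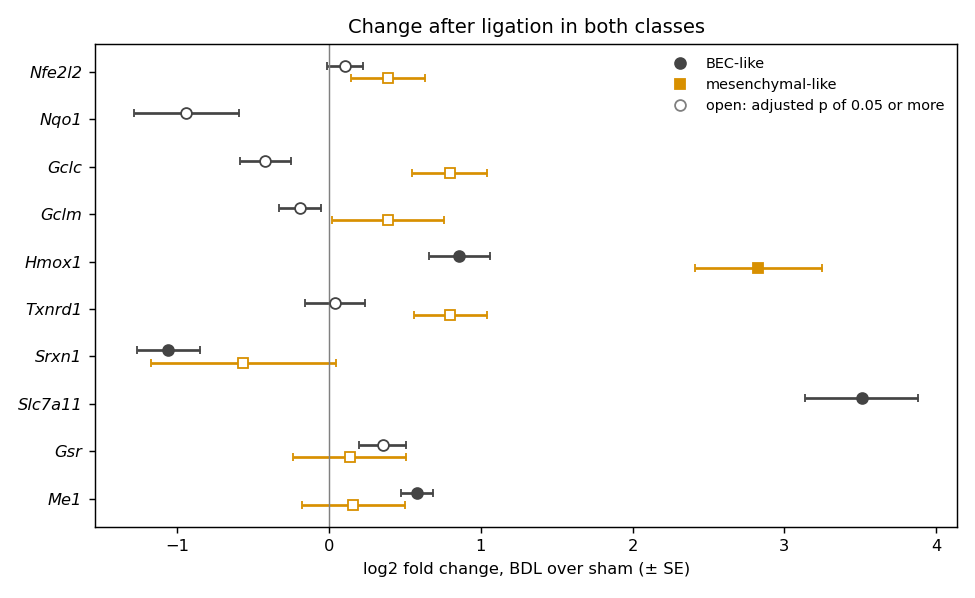
Log2 fold change (BDL over sham) ± SE of each gene in BEC-like cells (dark circles) and mesenchymal-like cells (orange squares); filled symbols passed an edgeR adjusted p of 0.05 and open ones did not. Hmox1 is at 0.86 and 2.83, Gclc is at -0.42 and 0.80 with neither passing, and Nqo1 and Slc7a11 have no value in mesenchymal-like cells, where the low-count filter removed them.

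Levels in the 5 classes are given as CPM without TMM scaling over both libraries of a group, with exact Poisson 95% intervals that cover counting error only. In the sham libraries Hmox1 was at 48.1 CPM (23.1 to 88.5) in endothelial-like, 39.4 CPM (4.77 to 142, 2 UMIs) in macrophage-like, 28.7 CPM (21.8 to 37.2) in mesenchymal-like and 14.2 CPM (12.5 to 16.0) in BEC-like cells, with no UMI in hepatocyte-like cells. The first 3 intervals overlapped. In the BDL libraries Hmox1 was at 411 CPM (299 to 552) in macrophage-like, 231 CPM (209 to 256) in mesenchymal-like, 174 CPM (120 to 245) in endothelial-like, 49.1 CPM (28.04 to 79.7) in hepatocyte-like and 23.8 CPM (22.4 to 25.3) in BEC-like cells. The macrophage-like value there rests on BDL replicate 2, which gave 40 of its 44 UMIs, and the mesenchymal-like and endothelial-like intervals overlapped. Me1 was at 228 CPM (221 to 235) in BEC-like and 248 CPM (174 to 344) in hepatocyte-like cells of the sham libraries, with overlapping intervals, and at 337 CPM (332 to 342) and 236 CPM (186 to 295) in the BDL libraries. In the other classes Me1 stood at 24.1 to 85.8 CPM.

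Gclc was at 200 CPM (134 to 287) in hepatocyte-like and 279 CPM (271 to 286) in BEC-like cells after sham surgery, with overlapping intervals, and at 604 CPM (523 to 694) and 199.9 CPM (196 to 204) after ligation. Gclm was above BEC-like cells in hepatocyte-like cells of both groups, at 297 CPM (215 to 400) against 69.4 CPM in sham and 120 CPM (85.0 to 163) against 59.0 CPM in BDL libraries. Nfe2l2 had its highest value in macrophage-like cells of both groups, at 453 CPM (287 to 679) and 664 CPM (519 to 837), and the next in endothelial-like cells, at 380 CPM (301 to 474) and 328 CPM (251 to 420). Gsr had its highest value in macrophage-like cells as well, at 295 CPM (165 to 487) and 178 CPM (107 to 277). These values rest on 15 UMIs in 4 sham cells and 19 UMIs in 8 BDL cells. Nqo1 had its highest value in endothelial-like cells, 14.4 CPM (2.98 to 42.2) and 42.3 CPM (18.3 to 83.3), from only 3 and 8 UMIs, and no UMI in macrophage-like cells, where a limit of 3 UMIs over all 4 libraries corresponds to 19.0 CPM. The small classes hold few cells from each library, so no test between classes was made. The macrophage-like cluster also led for 4 B-cell and 4 biliary markers.

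Whether the changes ran through the whole biliary population was read in BEC-like subclusters, formed without the listed genes and without any gene at an unadjusted p under 0.05. The 5 subclusters with at least 50 cells in every library are called by number. Subcluster 1 was led by Fos, Alb and Jun, subcluster 2 by Ankrd1, Ltbp2 and Ccn2, subcluster 3 by Nos2 and Rasal1, subcluster 4 by Dmbt1 and Anxa1, and subcluster 5 by Fanci and Dnah12. Subcluster 1 held 38.5% and 52.4% of the BEC-like cells of the sham libraries and 9.94% and 5.47% of those of the BDL libraries, and subcluster 3 held 8.84% and 5.21% against 28.3% and 35.7%. The sums over all BEC-like cells therefore weight the subclusters differently in the 2 groups. Values here are CPM without TMM scaling, with no test. Without overlap, 30.3%, 32.6%, 29.3%, 22.2% and 28.1% of 15991 genes were higher in the BDL libraries in subclusters 1 to 5, and 22.4%, 26.5%, 23.9%, 24.6% and 30.5% were lower.

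Slc7a11 was higher in both BDL libraries in all 5 subclusters, by 2.08 to 3.92 on the log2 scale, where 6.29% of genes were higher without overlap in all 5. Few UMIs stand behind the sham values, 0 to 3 in any subcluster and library. In subcluster 1 the values of 0.738, 0, 4.56 and 1.09 CPM rest on 2, 0, 4 and 1 UMIs, and the counting intervals of sham replicate 1 (0.089 to 2.67 CPM) and BDL replicate 2 (0.028 to 6.10 CPM) overlapped. In each of the other 4 subclusters, too, the interval of at least 1 sham library overlapped that of at least 1 BDL library. In subcluster 3 it was at 0.896, 4.70, 14.8 and 8.96 CPM, and in subcluster 5 at 0.938, 0, 8.56 and 5.63 CPM from 2, 0, 32 and 15 UMIs. Me1 was higher without overlap in 4 subclusters, where 13.6% of genes were in at least 4, and by the most in subcluster 5 (164, 184, 317 and 343 CPM). In subcluster 3 its groups overlapped (309, 271, 298 and 310 CPM).

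Hmox1 was higher without overlap in subclusters 2, 4 and 5, where 24.1% of genes were higher in at least 3. In subcluster 5 it went from 12.2 and 5.75 to 43.6 and 42.0 CPM, a difference of 2.25 on the log2 scale. In subclusters 1 and 3 the groups overlapped, with differences of 0.02 and -0.02. The difference between subclusters was not tested.

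Srxn1 was lower without overlap in subclusters 1 to 4, where 11.1% of genes were lower in at least 4. The differences were widest in subclusters 2 (42.1, 62.6, 15.1 and 15.7 CPM) and 3 (29.6, 50.1, 10.4 and 12.6 CPM), at -1.76 and -1.79 on the log2 scale. In subcluster 5 the groups overlapped at 12.3 to 17.8 CPM. Gclc and Nqo1 were lower without overlap in 3 subclusters each, where 20.1% of genes were lower in at least 3. For Gclc the gap was widest in subcluster 3 (228, 233, 124 and 148 CPM) and small in subcluster 1 (273 CPM in sham replicate 1 against 272 CPM in BDL replicate 1). Nqo1 in its 3 subclusters rests on 0 to 18 UMIs per library. Gclm was higher without overlap in subcluster 1 and lower in subcluster 3, and overlapped in the others. Gsr was higher in 2, and Nfe2l2 and Txnrd1 overlapped in all 5.

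**Figure D4:**
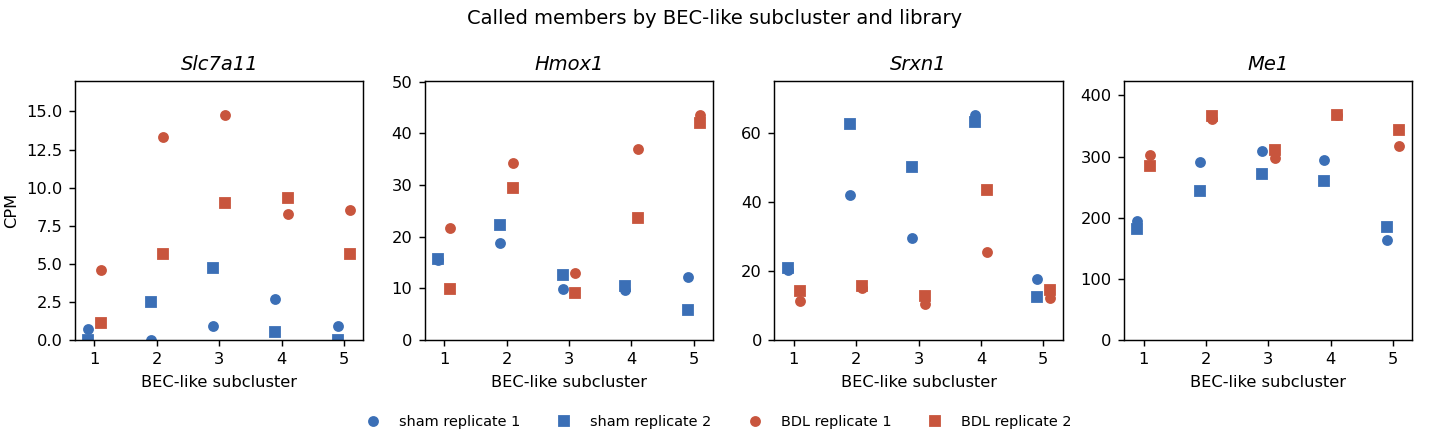
Level in CPM of the 4 called genes in each of 5 BEC-like subclusters, 1 point per library (blue sham, red BDL; circle replicate 1, square replicate 2). Slc7a11 is higher in both BDL libraries in all 5, Hmox1 in subclusters 2, 4 and 5, Me1 in all but subcluster 3, and Srxn1 is lower in subclusters 1 to 4.

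The genes most like each called gene in pattern were found by Pearson correlation of log2(CPM + 1) over the 20 sums of subcluster by library, among 6222 genes outside the lists with a mean of at least 20 CPM. The sums share libraries and depth, so the values describe these libraries only. Closest to Slc7a11 were Malt1 and Mcc (0.91 for each), to Me1 Cd2ap and Tes (0.93 for each), to Srxn1 Cavin1 (0.91) and Hbegf (0.90), and Arid5b was among those closest to Hmox1 (0.77). Hmox1 had no gene as close to it as the other 3 genes had.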

How the data were processed

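The deposited matrices hold whole-number counts of UMIs per cell and gene, with no normalization, per the file headers. The reference is named mm39refseq there, and GRCm39 per the submitters' processing notes. The aligner, the strand setting and the threshold for a cell are not given in the sources used here. Gclm, Txnrd1, Gsr and Me1 overlap other gene models in RefSeq's GRCm38.p6 table (such as Eid3 for Txnrd1), so their counts may be shared.

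Cells under 500 UMIs (7) or over 20% mitochondrial UMIs (11) were left out of 12211. Scrublet called 14 doublets, which were removed. So low a share may mean that the caller did not work, and doublets may remain. No doublet rate was measured. Cells were clustered with scanpy 1.11.5 (2000 variable genes, 30 components, 20 neighbours, Leiden resolution 1). A cluster took a class name with at least 3 markers and 50% of the class's list, each detected in 5% of cells and over 2-fold higher, a rule set after the data were seen, because biliary clusters of the sham libraries carried Alb, Ahsg and Ttr. Class names rest on these rebuilt clusters.

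Counts were summed per library and class (at least 30 cells in each library) and tested with edgeR 4.0.16 (R 4.3.3): TMM, filterByExpr, quasi-likelihood F test, two-sided, Benjamini-Hochberg adjustment over all genes, threshold 0.05. SE is the log2 fold change over the root of F. The difference between classes was an interaction term with the library as a block. Fits were tested on simulated data. Nothing states that replicates are separate animals beyond the titles, so p-values measure the spread between these libraries. Replicates differed beyond sampling noise (chi-square per degree of freedom 25.6 for sham and 37.9 for BDL). Alternatives were DESeq2 1.42.0, other size factors, filters, clusterings and doublet settings, thinned sums, single sublibraries, each library left out and, added after seeing the data, BEC-like cells with no UMI of Alb, Apoa1, Ahsg or Ttr.

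The members and lists were chosen with earlier results of these data known. Genes named are all 10 members, up to 4 genes per related list with the smallest adjusted p under 0.05 in BEC-like cells (up to 2 in mesenchymal-like cells) and the 2 genes closest in pattern to each called member. A result that this rule names is not reported here. Atf4, Ddit3 and Sod2 were named beyond this rule, after their values were seen. Replicates were numbered in accession order.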

Additional observations from a re-analysis of the deposited data

Results flagged for a closer look

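The effect of ligation differed between BEC-like and mesenchymal-like cells for 10 of 56 genes chosen by the naming rule, by edgeR's interaction test with the library as a block (5.39% of all genes passed it). Most of the 56 were chosen by a small p in BEC-like cells, so the share is not that of an independent set. Among the antioxidant genes these were Hmox1, with 0.86 against 2.83 on the log2 scale (difference -2.08, SE 0.40, edgeR adjusted p = 0.0029), and Gclc, with -0.42 against 0.80 (difference -1.26, SE 0.27, edgeR adjusted p = 0.00635). Of the related genes, the small MAF gene Maff had -0.998 against 0.05 (difference -1.07, edgeR adjusted p = 0.023), the oxidase subunit gene Cyba 1.43 against -0.07 (difference 1.45, edgeR adjusted p = 0.0131) and the one-carbon enzyme gene Shmt2 2.01 against -0.21 (difference 2.24, edgeR adjusted p = 0.0491). Gabarapl1 had -0.77 against 0.27 (difference -1.06, edgeR adjusted p = 0.0494) and Ugdh -0.89 against 0.56 (difference -1.45, edgeR adjusted p = 0.0197). Of the genes chosen for their likeness to called genes over BEC-like sums of the same libraries, Mcc had 1.78 against 0.48 (difference 1.30, edgeR adjusted p = 0.00961), Cd2ap 0.83 against -0.46 (difference 1.29, edgeR adjusted p = 0.0282) and Tes 1.30 against -0.35 (difference 1.61, edgeR adjusted p = 0.0119). The clusters within the mesenchymal-like class changed their balance between the groups, and their part in these differences was not tested. Within each of the 2 clusters, Hmox1 and Gclc were higher in both BDL libraries than in both sham libraries. The share of all genes that separate within a cluster was not counted, and in the whole class 52.3% did. In the cluster with Reln among its markers, the BDL values rest on 27 and 22 cells. These held 32 and 20 UMIs of Hmox1 and 33 and 26 of Gclc.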

How the results depend on the processing

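No paired analysis was possible because the titles carry a separate number for each library, and no replicate number. With 2 libraries a group, the library left out decided most calls, with its lone partner taken to vary as the other group did. Leaving out 1 library gave 1463 to 6446 genes in BEC-like cells and 1 to 6 of the antioxidant genes, 160 to 608 genes and 1 to 3 antioxidant genes in mesenchymal-like cells, and 1 to 3 antioxidant genes with a different effect between the classes. Fits of 1 sublibrary, with fewer cells, called 589, 2345, 1836, 2199, 2033, 1980, 2227 and 1852 genes in BEC-like cells (sublibraries 1 to 8), and the antioxidant count was 0 in sublibrary 1 and 1 in sublibraries 6 and 8. Cells with no hepatocyte UMI gave 1224 genes and 1 antioxidant gene. In mesenchymal-like cells DESeq2 called 360 genes, no filter on low counts 1075 (3 antioxidant genes), thinned sums 313, and removal of the top 5% of doublet scores gave 2 antioxidant genes; the cause was not tested. Sublibraries were not fitted for that class.

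Of the called genes, Slc7a11 was called in 5 of 5 sublibraries that tested it (2.26 to 4.64) and Me1 in 5 of 8 (0.44 to 0.59). Srxn1 was called in 5 of 7 (-1.44 to -0.89) and Hmox1 in 2 of 8 (0.38 to 1.26). The sublibraries split the same libraries, so these counts are not independent. With 8 and 7 sham UMIs in all, Slc7a11 could pass the low-count filter in a sublibrary only through the BDL libraries. Signs turned only for changes that missed the threshold. Nfe2l2 was -0.13 and -0.026 in sublibraries 1 and 8 and -0.079 in cells with no hepatocyte UMI. Txnrd1 was -0.037 with genes of at least 10 CPM, -0.016 in thinned sums, -0.38, -0.091, -0.14, -0.013 and -0.17 in sublibraries 1, 2, 3, 5 and 8, -0.072 in cells with no hepatocyte UMI, and -0.20 to 0.27 with 1 library left out. Gsr was -0.10 in sublibrary 1. With 1 library left out, mesenchymal-like Gclm ran from -0.036 to 0.88, Srxn1 from -2.61 to 0.070, Gsr from -0.035 to 0.38 and Me1 from -0.38 to 0.50, and the difference between classes from -1.29 to 1.30 for Srxn1 and -0.21 to 0.52 for Gsr. No filter on low counts moved the median of all genes in BEC-like cells by 0.13 on the log2 scale. Depth limits Nqo1 and Slc7a11 in the sham libraries, with at most 37 UMIs in any.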

Other observations

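Hmox1 in endothelial-like cells gave 80.0 and 34.4 CPM after sham surgery, against 138 and 191 CPM after ligation, from 5, 5, 8 and 25 UMIs, without a test.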
